A study of Mus musculus with 20 samples.

Results

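Keratins are the intermediate filament proteins of epithelial cells. Each filament is built from pairs of a type I chain, encoded in a cluster on mouse chromosome 11, and a type II chain, encoded in a cluster on chromosome 15. Krt18 is the type I gene that lies at the end of the type II cluster beside its partner Krt8. In lung, Krt8 and Krt18 mark the simple epithelium of the alveoli, Krt5 and Krt14 mark airway basal cells, and Krt6a, Krt6b, Krt16 and Krt17 are known from wounded or stressed stratified epithelia.

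The keratin genes described here are all genes on the array whose single annotated symbol is Krt followed by a number. Keratin-associated proteins (Krtap) do not belong to them. A gene needed values on 4 or more arrays of each time point. Of 40 annotated keratin genes with 48 array rows, 32 genes with 38 rows met that condition, among 17051 genes measured in all. These were 17 type I and 15 type II genes, 16 on chromosome 11 and 16 on chromosome 15. The 8 genes left out were Krt4, Krt9, Krt20, Krt25, Krt27, Krt35, Krt76 and Krt87. The measure did not enter this choice, but the genes and lists were picked with earlier results of these data known.

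The cells were MLE12, a mouse lung epithelial line made with a simian virus large T antigen transgene and grown with hydrocortisone and oestradiol in the medium, as were the controls. They received the NICD1-pIRES-DsRed2 plasmid or the empty vector with Lipofectamine2000 and were harvested at 12, 24 or 48 h. NICD1 is the intracellular domain of Notch1, which enters the nucleus and activates transcription together with the DNA-binding protein RBPJ. Each array set RNA of NICD1 cells against RNA of control cells harvested together, in 2 colours, with 6 arrays for 12 h and 7 each for the later times, from replicates described as independent. The plasmid also encodes a red fluorescent protein, all cells came from 1 line, and the sources used here do not give the transfected share.

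Values are log2 ratios of NICD1 over empty vector, so a value above 0 is a higher RNA level with NICD1. Because only ratios were analysed, the level of a keratin and the epithelial identity of the cells could not be checked, and values of different genes compare changes and not amounts. A lower ratio in bulk RNA can come from fewer cells with that RNA or from less RNA per cell, and these cannot be told apart. Each ratio is set against empty vector RNA harvested at the same time, and either RNA of the pair can make a ratio differ between times.

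Replicate 3 of the 12 h group and replicate 3 of the 48 h group had their ratios multiplied by -1. As deposited, Nrarp, a direct Notch target, stood at -1.93 and -1.58 on them and above 0 on the other 18 arrays, and Krt16 stood at -1.41 and -1.07. A second limit concerned 48 h, where replicates 5, 6 and 7 stood apart: across all genes they correlated with each other at 0.653 to 0.686. Replicates 1 to 4 correlated among themselves at 0.102 to 0.322, and with the other 3 at 0.0505 to 0.399. Each keratin past the threshold at 48 h is therefore given with and without those 3 arrays. Without them, 3.69% of all genes passed at 48 h.

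Many deposited values were repeated to the last digit in other rows of the same array, from 55.5% to 67.4% of the values of an array. Keratins differed sharply in this respect. Krt8, Krt14, Krt18 and Krt19 had no value that another row held. Krt16 shared 1 of its 20 values and Krt17 shared 3 of 20. Krt79 shared 13 of 19. Krt5, Krt6a, Krt6b, Krt15 and Krt222 shared all of theirs, and a value of Krt222 was held by a median of 246 rows of its array. Over the whole family, 29 of 38 rows shared values on more than 50% of their arrays, against 66.5% of all rows. The residual SD of the log2 ratio lay between 0.196 and 0.461 for the 6 keratins with under 20% of values shared. It lay between 0.271 and 1.52 for the other 26. Channel intensities were not analysed here, so whether shared values mark dim spots was not tested.

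**Figure D1:**
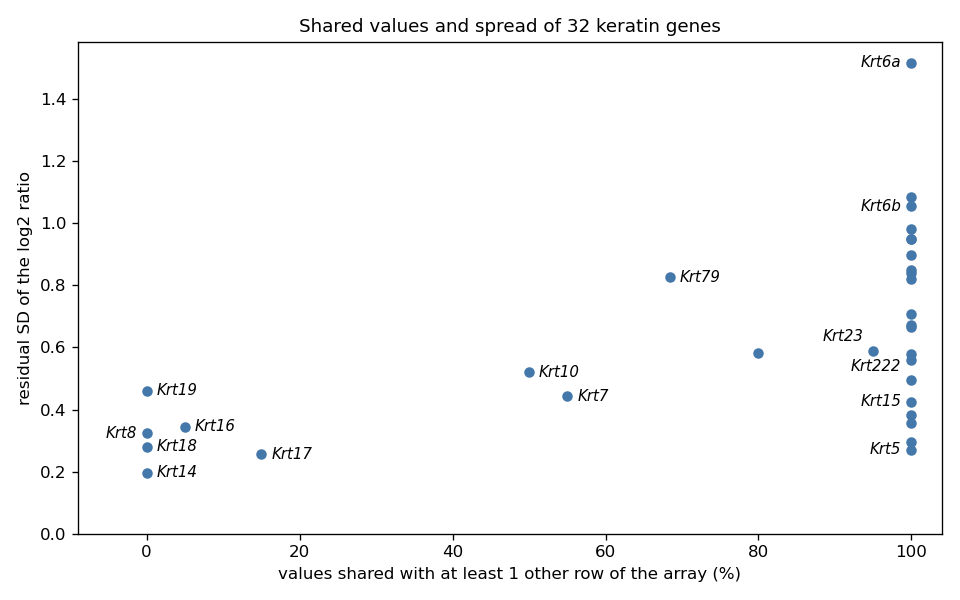
The percentage of a gene's deposited values that at least 1 other row of the same array also held (x axis) is plotted against the residual SD of its log2 ratio in the linear model (y axis) for the 32 keratin genes, each a point. Krt8, Krt14, Krt16, Krt17, Krt18 and Krt19 lie at the left with an SD of at most 0.461, and Krt6a lies at the upper right with 1.52.

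Fitted values come from a limma model with a coefficient for each time and a dye term over all 20 arrays, with Benjamini-Hochberg adjustment over all 17051 genes and a threshold of 0.05. They are written as log2 ratio ± standard error (SE), with n the number of arrays with a value. At 12 h, 1 of 32 keratins passed, and 0.282% of all genes did (0.0528% higher). At 24 h, 3 of 32 passed, all higher, against 1.67% of all genes (0.369% higher). At 48 h, 8 of 32 passed, 5 higher and 3 lower, against 27.8% of all genes (14% higher and 13.8% lower), so the share of keratins that passed at 48 h was near that of all genes. Krt16 passed at all 3 times, Krt17 and Krt79 at 24 and 48 h, Krt8 and Krt15 were higher at 48 h, and Krt14, Krt23 and Krt222 were lower at 48 h. The model shares 1 residual variance per gene over the 3 times, but the arrays differed in spread. The scaled median absolute deviation over all genes was 0.25 to 0.51 on the 12 and 24 h arrays. It was 0.66 to 0.75 on 48 h replicates 5, 6 and 7. With each time fitted alone, Krt16 was the only keratin that passed at 48 h, and 234 of all genes did.

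Across the whole family the shift was small. The median log2 ratio of the 32 keratins was 0.12 at 12 h, 0.13 at 24 h and 0.06 at 48 h, where the median of all genes lay at 0.004, 0.005 and -0.007. The ratio was above 0 for 24, 19 and 18 of the 32 keratins, against 51.1%, 51.5% and 49.2% of all genes. Type I genes accounted for 6 of the 8 keratins past the threshold at 48 h, 3 higher and 3 lower. Type II genes accounted for 2, both higher.

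**Figure D2:**
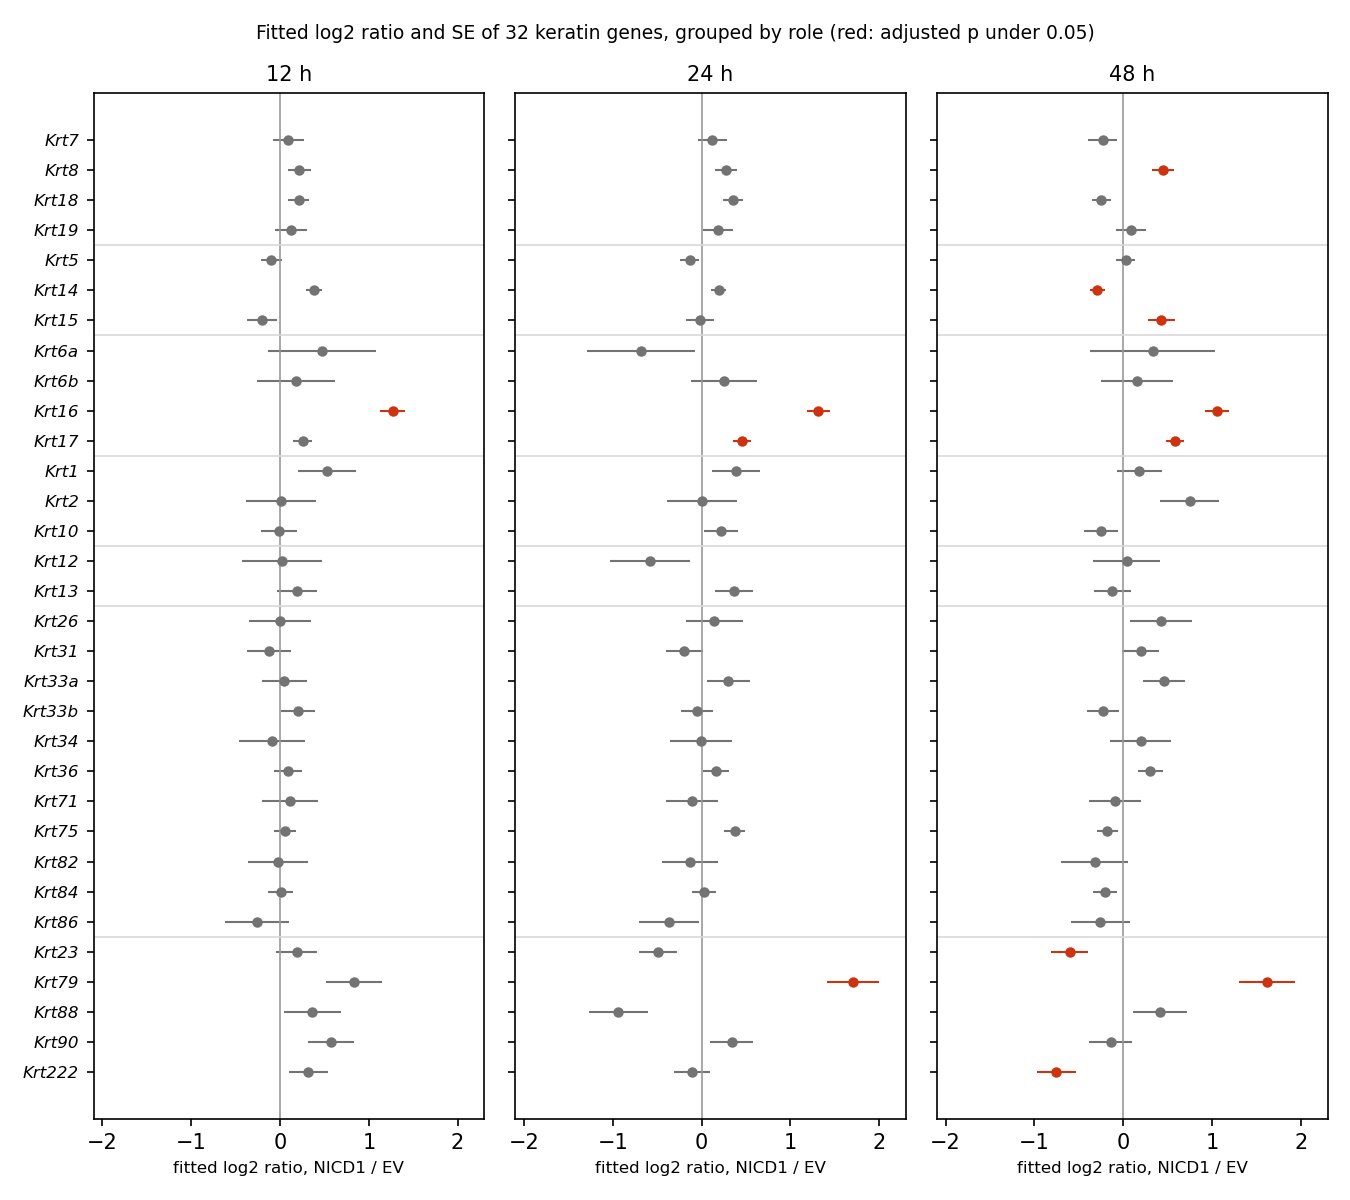
Fitted log2 ratio of NICD1 over empty vector (x axis) for each of the 32 keratin genes (rows) at 12, 24 and 48 h, with bars of 1 SE. Krt16 lies at 1.06 or above at every time, Krt79 reaches 1.70 at 24 h, and most other keratins lie near 0.

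Krt16, a type I keratin induced in wounded epidermis, showed the steadiest rise of the family. At 12 h its 6 ratios ran from 0.92 to 1.49 with a median of 1.33. At 24 h the 7 ratios ran from 0.93 to 1.57 with a median of 1.38. At 48 h they ran from 0.12 to 1.70 with a median of 1.17. After the turning of 2 columns all 20 arrays lay above 0, and 48 h replicate 4, at 0.12, stood well below the next lowest array of that time, at 0.85. The fitted ratio was 1.27 ± 0.14 at 12 h, a 2.41-fold rise (limma adjusted p = 3.23e-05, n = 6). It was 1.31 ± 0.13 at 24 h, 2.49-fold (limma adjusted p = 1.23e-06, n = 7), and 1.06 ± 0.13 at 48 h, 2.08-fold (limma adjusted p = 2.03e-05, n = 7). With those columns as deposited, Krt16 was at 0.80 at 12 h (limma adjusted p = 0.973) and 0.74 at 48 h (limma adjusted p = 0.0812), neither of which passed. Without 48 h replicate 4 the 48 h value was 1.25. Without 48 h replicates 5, 6 and 7 it was 0.94 (limma adjusted p = 0.00752). The differences of Krt16 between times were at most 0.26 in size and did not pass, with adjusted p of 1.00 for 24 against 12 h, 0.417 for 48 against 24 h and 0.516 for 48 against 12 h.

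Krt17, the type I keratin that lies next to Krt16 on chromosome 11 and is induced with it in wounds, rose by a smaller amount. Its ratios ran from -0.05 to 0.62 with a median of 0.26 at 12 h, from 0.15 to 1.01 with a median of 0.40 at 24 h, and from 0.28 to 0.82 with a median of 0.59 at 48 h. Only 12 h replicate 3, at -0.05, lay below 0. The fitted ratio was 0.25 ± 0.11 at 12 h and did not pass (limma adjusted p = 0.910). It rose 1.37-fold at 24 h, at 0.46 ± 0.10 (limma adjusted p = 0.0187, n = 7), and rose at 48 h, at 0.59 ± 0.10 (limma adjusted p = 0.000579, n = 7). The 24 h call was lost without 24 h replicate 2, 3 or 6, with adjusted p of 0.0711, 0.107 and 0.0680. The 48 h value was 0.53 without replicates 5, 6 and 7 (limma adjusted p = 0.0437).

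Krt6a and Krt6b encode the type II chains that pair with Krt16 and Krt17 in wounded epidermis, and neither passed at any time. Krt6a had values on 14 arrays, from -1.92 to 3.42, with a fitted ratio of 0.47 ± 0.61 at 12 h, -0.68 ± 0.61 at 24 h and 0.33 ± 0.70 at 48 h. Krt6b ran from -1.77 to 1.75, with 0.18 ± 0.44, 0.25 ± 0.37 and 0.15 ± 0.40. With SEs of this size, a rise like that of Krt17 was not detectable on these arrays. The coding sequences of Krt6a and Krt6b are nearly identical, and those of Krt14, Krt16 and Krt17 are related. Whether the probes tell them apart was not tested.

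**Figure D3:**
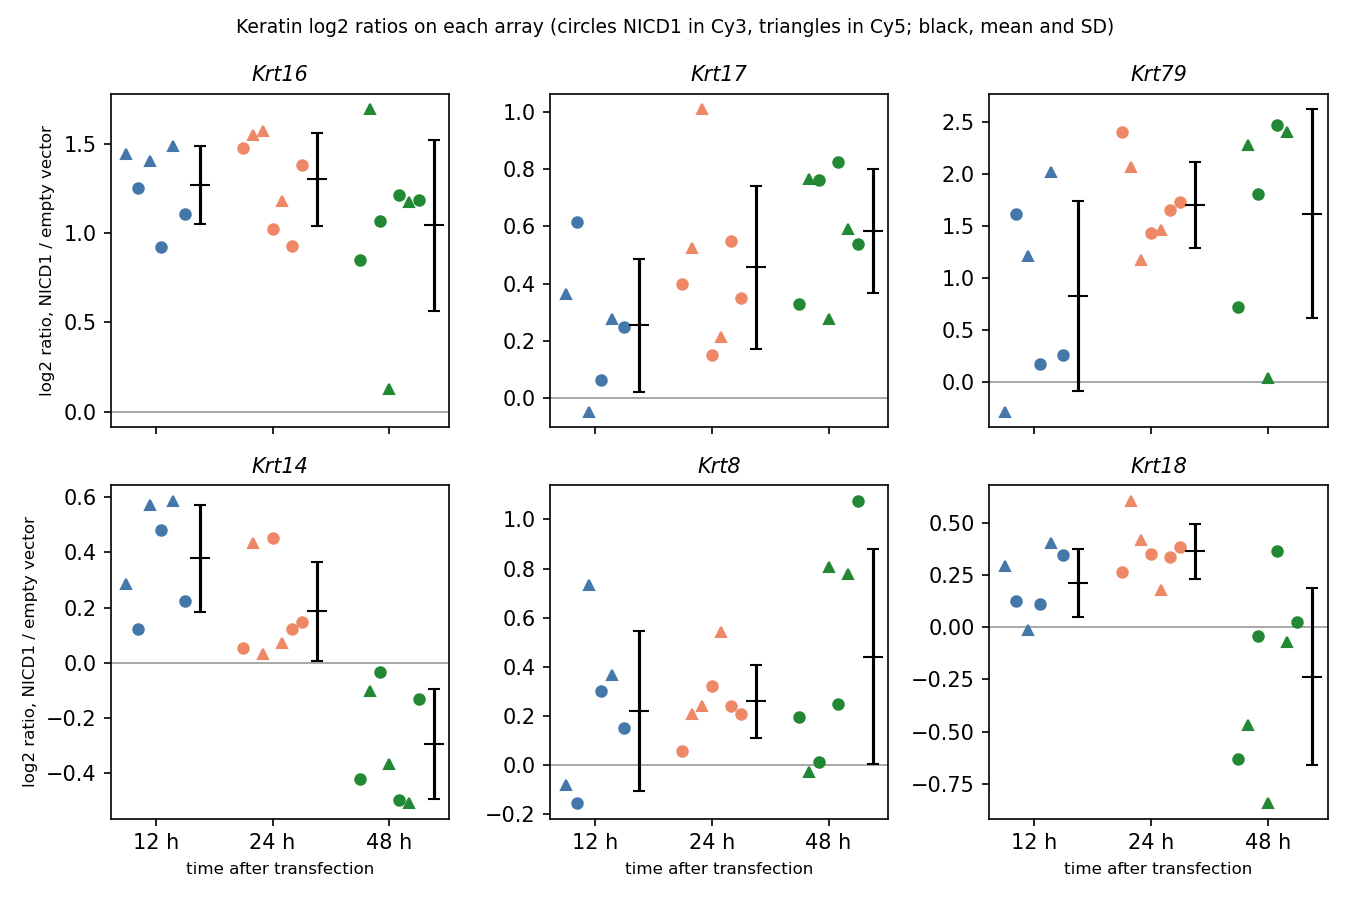
Log2 ratio of NICD1 over empty vector (y axis) on each of the 20 arrays, by time after transfection (x axis), for the keratins named in the panels. Circles are arrays with NICD1 in Cy3, triangles arrays with NICD1 in Cy5, and black bars the mean and SD. After the turning of 2 columns, Krt16 is above 0 on all 20 arrays, and Krt14 is above 0 on all arrays at 12 and 24 h and below 0 on all 7 at 48 h.

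Krt79, a type II keratin known in mouse skin from the cells that line the hair canal, had the highest fitted ratios of the family at 24 and 48 h. At 12 h its 6 values ran from -0.28 to 2.01 with a median of 0.73. At 24 h the 7 values ran from 1.18 to 2.41 with a median of 1.65. At 48 h the 6 values ran from 0.05 to 2.46 with a median of 2.04. The 12 h arrays were split between 3 at 1.21 or above and 3 at 0.26 or below, and the 24 h arrays all lay above 1. At 48 h, replicate 4 at 0.05 and replicate 1 at 0.73 were low. The fitted ratio was 0.83 ± 0.31 at 12 h (limma adjusted p = 0.798, n = 6), 1.70 ± 0.29 or 3.25-fold at 24 h (limma adjusted p = 0.00170, n = 7) and 1.62 ± 0.31 or 3.07-fold at 48 h (limma adjusted p = 0.00130, n = 6). Without 48 h replicates 5, 6 and 7 the 48 h ratio was 1.21 and no longer passed (limma adjusted p = 0.0828). The difference between 24 and 12 h, 0.87 ± 0.43, did not pass (limma adjusted p = 0.915).

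Among the basal layer keratins, Krt14, the type I partner of Krt5, was the member with the least spread (residual SD 0.196). Its 6 ratios at 12 h ran from 0.12 to 0.59 with a median of 0.38, and its 7 ratios at 24 h from 0.03 to 0.45 with a median of 0.12. At 48 h the 7 ratios ran from -0.51 to -0.03 with a median of -0.36. After the turning of 2 columns, Krt14 was above 0 on 6 of 6 and 7 of 7 arrays and then on 0 of 7. As deposited, Krt14 stood at -0.57 on 12 h replicate 3 and at 0.03 on 48 h replicate 3. Of all genes, 2.06% at 12 h and 1.94% at 24 h were higher on every array, and 7% at 48 h were lower on every array. The share of all genes with all 3 of these patterns was not counted. The fitted ratio was 0.38 ± 0.09 at 12 h (limma adjusted p = 0.130) and 0.19 ± 0.08 at 24 h (limma adjusted p = 0.540), neither of which passed. At 48 h it was 1.22-fold lower, at -0.29 ± 0.08 (limma adjusted p = 0.0146, n = 7). The 48 h call held in 25 of 32 alternative settings. It was lost without replicate 5 or 6 of that time, with adjusted p of 0.0508 and 0.0707. It was also lost with the 2 turned columns as deposited (limma adjusted p = 0.0654) and with each time fitted alone (0.159). Array weights (0.0824) and arrays scaled to equal spread (0.0868) lost it too. Without replicates 5, 6 and 7 together the ratio was -0.23 (limma adjusted p = 0.228).

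Krt5, the type II partner of Krt14, stayed near 0. It was at -0.10 ± 0.12 at 12 h, -0.13 ± 0.11 at 24 h and 0.03 ± 0.11 at 48 h, with arrays on both sides of 0 at each time. Krt15, a type I keratin of basal cells, was at -0.21 ± 0.17 and -0.02 ± 0.16 at 12 and 24 h. At 48 h it was higher by 1.35-fold, at 0.43 ± 0.16 (limma adjusted p = 0.0475, n = 7), with 5 of 7 arrays above 0. Its 48 h ratios were 0.61 to 1.08 on replicates 5, 6 and 7 and -0.11 to 0.41 on the other 4. The value without those 3 was 0.17 (limma adjusted p = 0.686), and the call held in 15 of 32 alternative settings.

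Of the simple epithelial keratins, Krt8 rose at 48 h and its partner Krt18 did not. The Krt8 ratios ran from -0.16 to 0.73 with a median of 0.22 at 12 h, from 0.06 to 0.54 with a median of 0.24 at 24 h, and from -0.03 to 1.08 with a median of 0.25 at 48 h. All 7 arrays at 24 h and 6 of 7 at 48 h were above 0, and 48 h replicates 4, 6 and 7 stood at 0.81, 0.78 and 1.08. The fitted ratio was 0.22 ± 0.13, 0.27 ± 0.12 and 0.45 ± 0.12, of which the last, 1.37-fold, passed (limma adjusted p = 0.0103, n = 7). Of the 2 array rows of Krt8, fitted singly, 1 was at 0.62 ± 0.14 at 48 h (limma adjusted p = 0.00371) and the other at 0.29 ± 0.14 (limma adjusted p = 0.162). Of all rows fitted this way, 0.19% passed at 12 h, 1.16% at 24 h and 24.3% at 48 h, and of the 38 keratin rows 1, 3 and 7 did. Without replicates 5, 6 and 7 the gene was at 0.25 (limma adjusted p = 0.334).

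Krt18 ratios ran from -0.01 to 0.40 with a median of 0.21 at 12 h, from 0.18 to 0.61 with a median of 0.35 at 24 h, and from -0.84 to 0.37 with a median of -0.07 at 48 h. The 7 arrays at 24 h were all above 0, and 5 of 7 at 48 h were below 0. The fitted ratio was 0.21 ± 0.12 at 12 h, 0.35 ± 0.11 at 24 h (limma adjusted p = 0.177) and -0.25 ± 0.11 at 48 h (limma adjusted p = 0.109). At 48 h, replicates 1 to 4 lay between -0.84 and -0.04 and replicates 5, 6 and 7 between -0.07 and 0.37. Without the latter 3, Krt18 passed as lower, at -0.50 (limma adjusted p = 0.0216). It also passed without replicate 5 alone, at -0.34 (limma adjusted p = 0.0309). At 24 h, Krt18 passed as higher in 3 of 32 alternative settings. These were without 48 h replicates 5, 6 and 7 (limma adjusted p = 0.0325), with array weights (0.0105) and with scaled arrays (0.0413).

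The other measured members of the simple epithelial list, Krt7 and Krt19, did not pass at any time. Krt19 was at 0.12 ± 0.18, 0.19 ± 0.17 and 0.09 ± 0.17 at 12, 24 and 48 h. Krt7 was at 0.09 ± 0.18, 0.12 ± 0.16 and -0.23 ± 0.16. The dye term, tested after the data were seen, passed for Krt7, whose ratio was lower by 0.48 ± 0.10 than the dye average where NICD1 carried Cy5 (limma adjusted p = 0.0104). It also passed for Krt34, a hair keratin, at 0.79 ± 0.21 (limma adjusted p = 0.0353). The dye term passed for none of the other 30 keratins, and for 4.6% of all genes.

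To compare keratins that pair or share a stimulus, differences were taken within each array, with pairs chosen after the data were seen and an exact two-sided sign-flip permutation test adjusted over 12 comparisons. Krt8 exceeded Krt18 on 6 of 7 arrays at 48 h, by 0.68 (SD 0.61, exact p = 0.0469, adjusted 0.0703). At 12 and 24 h the mean difference was 0.008 and -0.10. The Krt5 ratio was below that of Krt14 by 0.48 at 12 h, on 5 of 6 arrays, and above it by 0.31 (SD 0.37) at 48 h, on 6 of 7 arrays (exact p = 0.0469, adjusted 0.0703). Krt16 exceeded Krt14 on all 20 arrays, by 0.89 (SD 0.26), 1.12 (SD 0.34) and 1.34 (SD 0.46). It exceeded Krt17 by 1.02 (SD 0.29), 0.85 (SD 0.27) and 0.46 (SD 0.34), with 48 h replicate 4 the only array of the 20 where it did not. The smallest p that the test can give was 0.0312 with 6 arrays and 0.0156 with 7, and the smallest adjusted p reached was 0.0625, so none of the 12 passed. Without 48 h replicates 5, 6 and 7, the 48 h difference was 0.74 for Krt8 over Krt18 and 0.16 for Krt5 over Krt14, with an exact p of 0.125 each (adjusted 0.167), the smallest that 4 arrays allow.

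**Figure D4:**
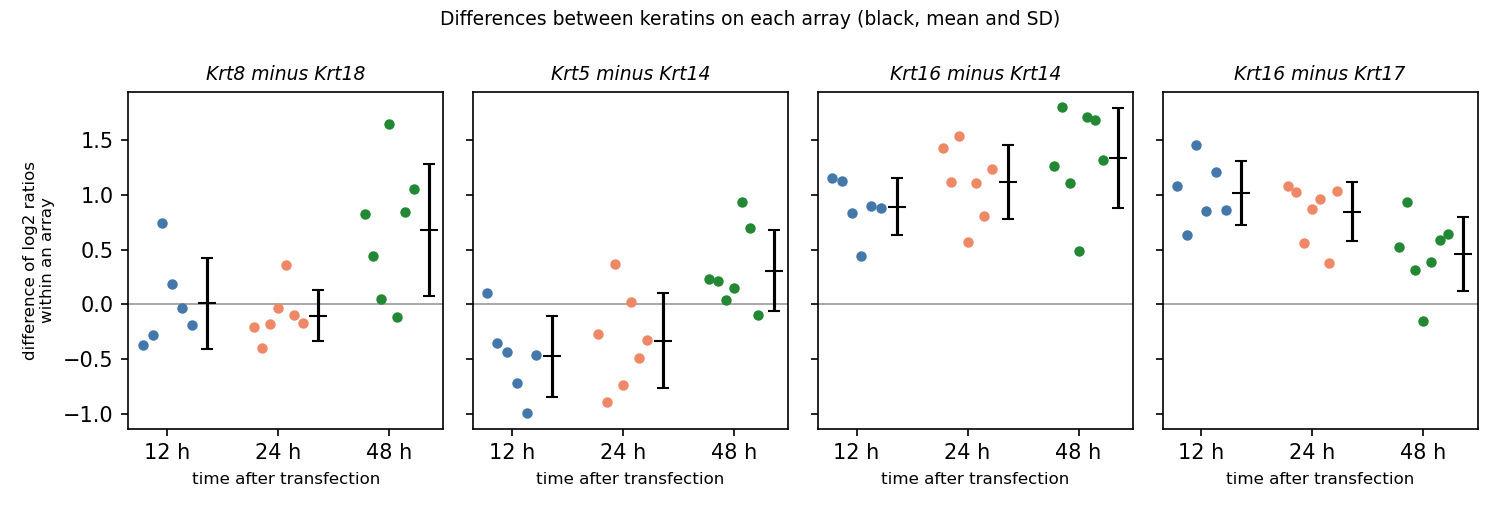
Difference between the log2 ratios of 2 keratins on the same array (y axis) by time after transfection (x axis), with a point for each array and the mean and SD in black. Krt16 minus Krt14 is above 0 on all 20 arrays, and Krt8 minus Krt18 is above 0 on 6 of 7 arrays at 48 h.

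The 5 keratins placed in no tissue list included Krt79 and 2 that fell at 48 h. Krt222, a type I gene at the edge of the chromosome 11 cluster, was above 0 on 6 of 6 arrays at 12 h, from 0.006 to 0.73. At 48 h it was below 0 on 5 of 6 arrays, from -1.54 to 0.61, with replicate 4 the exception. The fitted ratio moved from 0.32 ± 0.22 at 12 h through -0.11 ± 0.20 at 24 h to -0.75 ± 0.22 at 48 h, 1.69-fold lower (limma adjusted p = 0.0161, n = 6). The 48 h call was lost without 48 h replicate 2 (limma adjusted p = 0.107), without replicate 5 (0.0624) and without replicates 5, 6 and 7 (0.163), where the ratio was -0.70.

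Krt23, a type I keratin of simple epithelia that was not in the simple epithelial list, was at 0.19 ± 0.23 at 12 h and -0.49 ± 0.21 at 24 h. It was 1.52-fold lower at 48 h, at -0.60 ± 0.21 (limma adjusted p = 0.0393, n = 7), with 6 of 7 arrays below 0 and a range of -1.20 to 0.02. It no longer passed without 48 h replicate 1, 2, 5, 6 or 7, with adjusted p between 0.0613 and 0.153. Without replicates 5, 6 and 7 the ratio was -0.33 (limma adjusted p = 0.574). Both Krt222 and Krt23 shared at least 95% of their values with other rows.

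Lists that name the keratins of other tissues held no gene past the threshold at any time. Krt79, known from the hair canal, passed at 24 and 48 h but was placed in no tissue list. None of 11 measured hair and inner root sheath keratins passed, with fitted ratios from -0.36 to 0.46 over the 3 times. None of 3 suprabasal epidermal keratins (from -0.25 to 0.75) and none of 2 mucosal and corneal keratins (from -0.58 to 0.37) passed. Of all genes, 0.282%, 1.67% and 27.8% passed at 12, 24 and 48 h. Krt33a passed at 48 h once 48 h replicate 3 was left out, and Krt2 at 48 h without 12 h replicate 1.

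Differences between times were tested directly. None of the 32 keratins differed between 12 and 24 h, against 0.897% of all genes. Krt14 was lower at 48 h than at 24 h by a fitted -0.48 ± 0.12 (limma adjusted p = 0.0480), the only keratin of 32, against 2.05% of all genes (0.985% lower). That call held in 6 of 31 alternative settings, with adjusted p from 0.0168 to 0.375. Krt18 lay just outside, at -0.60 ± 0.16 (limma adjusted p = 0.0503), and passed in 8 of 31. Between 12 and 48 h, 2 of 32 keratins differed, both lower at 48 h, against 9.17% of all genes (4.9% lower). Krt14 was lower at 48 h by -0.67 ± 0.12 (limma adjusted p = 0.00362), which held in 30 of 31 settings and not with the columns as deposited (limma adjusted p = 0.0914). Krt222 was lower by -1.07 ± 0.31 (limma adjusted p = 0.0382), which held in 16 of 30. Without 48 h replicates 5, 6 and 7, Krt14 was lower than at 24 h by -0.42 (limma adjusted p = 0.375), Krt222 was lower than at 12 h by -1.02 (limma adjusted p = 0.161), and Krt18 passed against 24 h at -0.86 (limma adjusted p = 0.0376) and against 12 h at -0.71 (limma adjusted p = 0.0184).

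Keratins were also read along the chromosomes in RefSeq's gene order (GRCm38.p6). Whether neighbours moved as blocks was not tested. On chromosome 11, Krt14, Krt16 and Krt17 follow each other among the keratins, and at 48 h their ratios were -0.29, 1.06 and 0.59. Krt15 and Krt19 follow each other a few genes away, with 48 h ratios of 0.43 and 0.09. On chromosome 15, the cluster ends with Krt79, Krt78, Krt8 and Krt18, of which Krt78 was not analysed here. The 48 h ratios of the 3 others were 1.62, 0.45 and -0.25. At 24 h, Krt14, Krt16, Krt17, Krt79, Krt8 and Krt18 were above 0 on every array, as were 1.94% of all genes. They were the only 6 of the 32 keratins that were. Their 24 h ratios were 0.19, 1.31, 0.46, 1.70, 0.27 and 0.35, of which those of Krt16, Krt17 and Krt79 passed. Krt15 and Krt19 stood at -0.02 and 0.19 at 24 h.

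**Figure D5:**
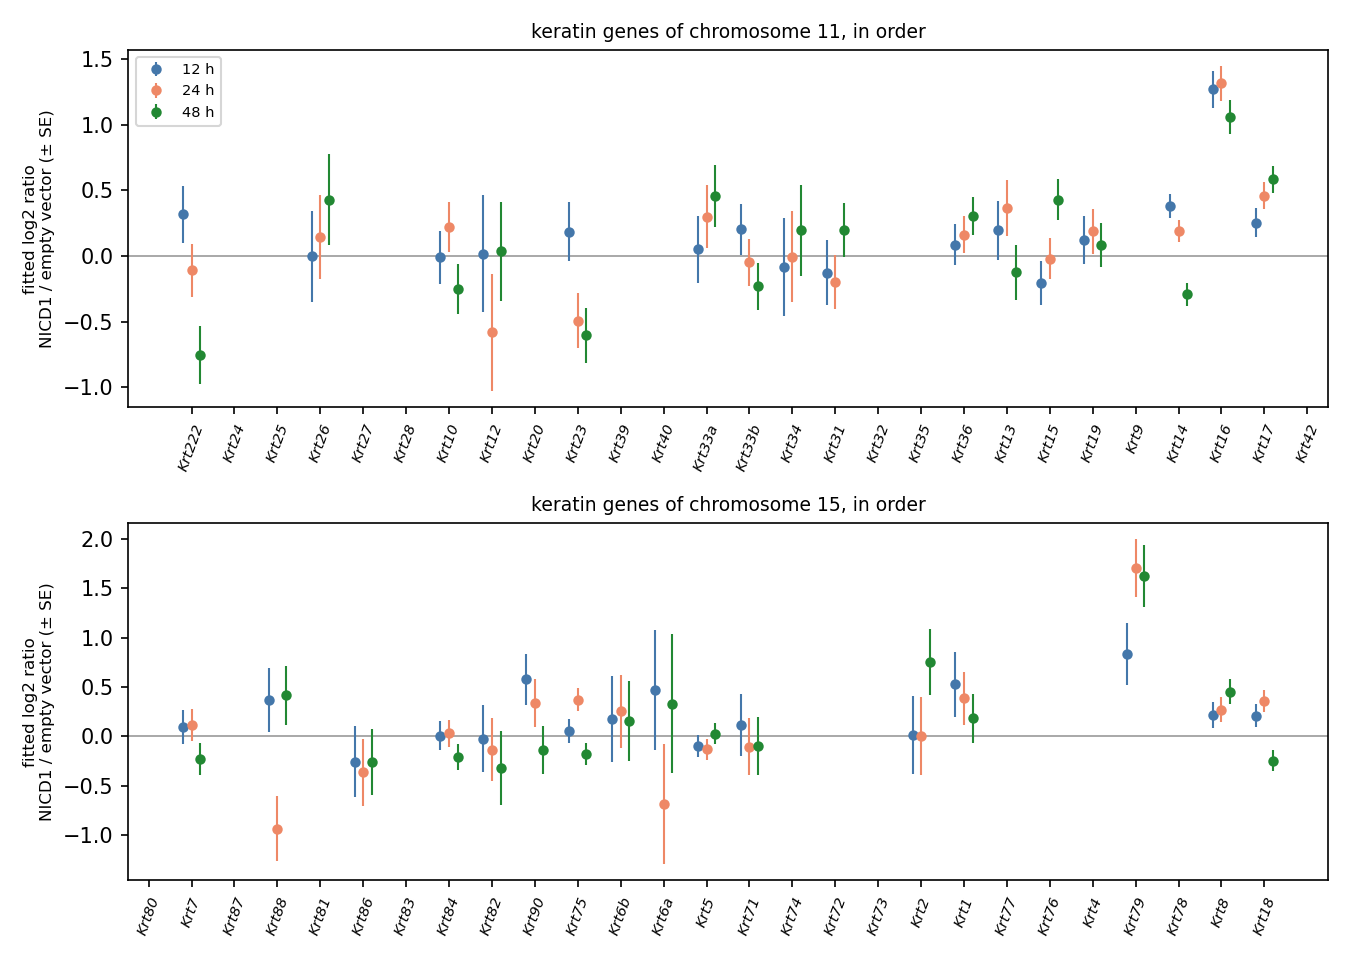
Fitted log2 ratio (y axis) of each measured keratin at 12, 24 and 48 h, placed by its order in the RefSeq gene list on chromosome 11 and on chromosome 15 (x axis). The neighbours Krt14, Krt16 and Krt17 stand at -0.29, 1.06 and 0.59 at 48 h.

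Promoter sequences were taken from RefSeq (GRCm38.p6), which had a window of 250 bases before to 50 after the start for 21 of the 32 keratins, 22 windows in all. The 11 keratins without a window included Krt15, Krt16, Krt17 and Krt222, which passed the threshold at 48 h. The letters TGGGAA, the core that RBPJ is known to bind, were searched on both strands. They occurred in 9 of 22 keratin windows (40.9%) and in 25.6% of 32851 windows of all genes. TGANTCA, the AP-1 motif, occurred in 2 of 22 (9.09%), both of them windows of Krt13, against 7.81%. No match of it overlapped TGGGAA. A match is only a match of letters. Krt79 had the highest fitted ratio at 24 and 48 h, and Krt8 and Krt18 are filament partners. Krt14 was the only keratin called for 48 against 24 h. For these reasons, the windows of Krt79, Krt8, Krt18 and Krt14 are shown. They lie at chr15:101940275-101940574 (minus strand), chr15:102004293-102004592 (minus strand), chr15:102027966-102028265 (plus strand) and chr11:100205981-100206280 (minus strand). Each is written 5′ to 3′ along its gene, with TGGGAA or its reverse complement in capitals.
Krt79: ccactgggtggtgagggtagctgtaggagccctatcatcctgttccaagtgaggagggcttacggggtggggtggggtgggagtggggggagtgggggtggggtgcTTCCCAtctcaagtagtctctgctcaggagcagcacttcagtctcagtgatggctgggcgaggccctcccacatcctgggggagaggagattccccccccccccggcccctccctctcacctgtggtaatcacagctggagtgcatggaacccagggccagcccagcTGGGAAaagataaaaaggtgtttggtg
Krt8: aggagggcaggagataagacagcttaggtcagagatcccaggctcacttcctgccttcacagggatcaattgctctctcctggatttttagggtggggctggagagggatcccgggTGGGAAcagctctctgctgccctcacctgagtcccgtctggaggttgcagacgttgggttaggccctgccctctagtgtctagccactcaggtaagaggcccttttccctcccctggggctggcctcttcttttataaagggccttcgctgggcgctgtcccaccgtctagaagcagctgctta
Krt18: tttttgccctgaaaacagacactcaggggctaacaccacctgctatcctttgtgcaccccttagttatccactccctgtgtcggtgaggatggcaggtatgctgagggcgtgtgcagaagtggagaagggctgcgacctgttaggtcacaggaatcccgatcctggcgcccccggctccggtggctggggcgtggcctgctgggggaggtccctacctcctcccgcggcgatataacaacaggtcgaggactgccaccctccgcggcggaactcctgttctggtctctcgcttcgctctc
Krt14: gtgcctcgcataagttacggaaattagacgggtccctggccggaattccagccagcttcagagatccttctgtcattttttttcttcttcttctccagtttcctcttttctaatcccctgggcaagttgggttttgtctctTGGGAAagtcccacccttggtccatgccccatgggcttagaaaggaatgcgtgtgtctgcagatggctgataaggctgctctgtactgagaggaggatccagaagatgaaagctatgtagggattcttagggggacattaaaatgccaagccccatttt
The Krt79 window holds a match 144 bases before the start, on the other strand, and another 23 bases after it. The Krt8 window holds 1 match, 134 bases before the start, and the Krt14 window 1, at 109 bases. The Krt18 window holds none. Krt23, which passed as lower at 48 h, also has a window, not shown here, and that window holds none.

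Genes that anchor or organise keratin filaments are described from lists chosen with earlier results known. Of 10 measured plakins and desmosome plaque proteins, which tie keratin filaments to cell junctions, 7 were higher and none lower at 48 h, with a median of 0.49. Of all genes, 14% were higher at that time, and their median was -0.007. Pkp1, the desmosomal plakophilin 1, was at 2.49 ± 0.15 (limma adjusted p = 1.41e-09), and it alone of the linked lists also passed at 12 h (0.94) and 24 h (1.79). The 12 h call was lost without 12 h replicate 1, with both turned columns as deposited, with arrays scaled to equal spread and with each time fitted alone. Dsp, the desmoplakin that binds keratin directly, was at 1.05 ± 0.17, Pkp2 at 0.85 ± 0.17 and Evpl, the envoplakin gene, at 0.69 ± 0.13. Without 48 h replicates 5, 6 and 7, 2 of the 10 passed, Pkp1 and Dsp, against 3.69% of all genes.

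Of 4 keratin network organisers, 2 were higher at 48 h, Fam83h (0.92 ± 0.18) and Tchp (0.31 ± 0.09), and none without those 3 arrays. Tchp was also lost without replicate 4, 6 or 7 alone. Of 16 other intermediate filament genes, 4 were higher and none lower, with a median of 0.39, against 27.8% of all genes past the threshold, 14% higher and 13.8% lower. These were Nes, the nestin gene, at 0.77 ± 0.16, Synm, the synemin gene, at 0.68 ± 0.16, and the lamin genes Lmna at 0.59 ± 0.12 and Lmnb2 at 0.40 ± 0.07. Of these, only Lmnb2 passed without replicates 5, 6 and 7.

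Of 24 cornified envelope and epidermal differentiation genes, 1 was higher at 48 h, Lor, the loricrin gene (0.90 ± 0.21), and 1 lower, Sprr2f (-0.62 ± 0.21), whose values were all shared with other rows. Among 9 transcription factors of stratified epithelia, Klf4 (0.83 ± 0.24) and Grhl2 (0.47 ± 0.13) were higher. Of 11 alveolar markers, Cav1 (0.52 ± 0.09), Abca3 (0.42 ± 0.11) and Nkx2-1 (0.32 ± 0.12) were higher and Hopx (-0.47 ± 0.16) was lower at 48 h, with a list range from -0.58 to 0.52. None of these 3 lists had a member past the threshold at 12 or 24 h with all arrays, or at 48 h without replicates 5, 6 and 7. At 48 h, 27.8% of all genes passed. Without 48 h replicate 6 or 7 alone, none of the 9 transcription factors and only Abca3 and Cav1 of the alveolar markers passed. Of the transcription factors, Grhl2 alone passed without replicate 5, and Klf4, Klf5 and Grhl2 passed without replicate 2. Sprr2f was lost without 48 h replicate 2, 3, 4, 5 or 7, and Nkx2-1 without 48 h replicate 1, 4, 6 or 7, 24 h replicate 1, 2, 6 or 7 or 12 h replicate 3, 5 or 6. Sbsn, a cornified gene, passed at 12 h without 24 h replicate 5, and Ivl at 24 h without 24 h replicate 4 or 48 h replicate 5. The part of these alveolar marker changes in the keratin ratios was not tested.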

How the data were processed

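The deposited table held log2 ratios for 45220 rows on 20 arrays; limma was used upstream per the submitters' processing notes. Its version, the background correction, the centring and the direction were not given in the sources used here. The values are signed and their medians lie near 0. Column medians ran from -0.0179 to 0.0195. Missing values made up 14.2% of the table. Columns titled 12h.3 and 48h.3 were multiplied by -1, because Nrarp stood below 0 on them and above 0 on all others.

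Rows were named from the array annotation, and a gene was the mean of its rows with 1 symbol and 4 or more arrays with a value in every time group. The model was fitted with limma 3.58.1 in R 4.3.3 over all 20 arrays, with 3 time coefficients, 1 dye term and 1 residual variance per gene, so the SE at a time rests on the arrays of all times. Adjustment was by Benjamini-Hochberg over 17051 genes. The fit was tested on simulated data. The number of arrays limits the precision, and no intensities were used.

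Alternatives were the 2 turned columns as deposited or left out, no dye term, each time alone, 48 h without replicates 5, 6 and 7, a replicate block, robust variance, array weights, scaled arrays, medians of rows, other filters and each array left out in turn. Named with values were 6 marker keratins, every keratin past the threshold, their partners, and from each other list at most the 4 genes with the smallest p among those that passed. The keratins, lists and tests were chosen with earlier results of these data known, and the lists, dye tests and paired differences are descriptions of the data that prompted them. Sharing of values between rows was counted on the values as deposited. Promoters were credited to RefSeq (GRCm38.p6). Replicates were compared only as the labels number them.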

Additional observations from a re-analysis of the deposited data

Results flagged for a closer look

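In groups of 4 to 10 arrays, 42 combinations of a named keratin and a time were examined for an array far from the others, and 2 had one, where chance gives about 1 in 20. Krt6a at 24 h stood at 1.61 on replicate 1, with the other 4 arrays between -1.92 and -1.02. Krt7 at 48 h stood at -1.13 on replicate 6, with the other 6 between -0.21 and 0.34.

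The ratio differed between times, by the limma contrast, for 2 keratins. Krt14 was lower at 48 h than at 24 h by -0.48 and lower than at 12 h by -0.67. Krt222 was lower at 48 h than at 12 h by -1.07.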

How the results depend on the processing

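With all settings as reported, 1, 3 and 8 keratin genes passed at 12, 24 and 48 h, as did 1, 3 and 7 rows, and 0, 1 and 2 genes differed for 24 against 12, 48 against 24 and 48 against 12 h. With both turned columns as deposited, 0, 1 and 3 genes and 0, 0 and 2 rows passed, and 0 differed in either contrast with 48 h; the fitted ratio became -0.026 for Krt8, 0.058 for Krt15 and -0.096 for Krt19 at 12 h and -0.20 for Krt6a at 48 h, and Krt8 minus Krt18 at 12 h became -0.24. With those columns left out that difference was -0.14, and 2 genes (Krt14, Krt18) differed between 24 and 48 h and 1 (Krt14) between 12 and 48 h. Each time fitted alone gave 1 gene (Krt16) and 0 rows at 48 h, and Krt15 at 24 h became 0.0064. Without 48 h replicates 5, 6 and 7, 3 genes and 2 rows passed at 48 h, Krt5 became -0.074 and Krt7 0.045. The same-numbered arrays of different times did not pair (deviations correlated between -0.132 and 0.139, over 0.1 in 1 of 19 pairs); with a replicate block, 0 genes differed between 24 and 48 h and 1 (Krt14) between 12 and 48 h, and at 12 h Krt6a became -0.42 and Krt6b -0.071. Array weights gave 2, 5 and 3 genes, 2, 5 and 3 rows, 0 genes differing between 24 and 48 h, and ratios of 0.067 for Krt15 and 0.027 for Krt222 at 24 h and -0.00078 for Krt5 at 48 h. Arrays scaled to equal spread gave 2 genes at 12 h (Krt14, Krt16), 5 genes and 4 rows at 48 h, 1 gene differing between 12 and 48 h, and 0.028 for Krt15 at 24 h. For 24 against 48 h, 0 genes differed without the dye term, with robust variance or with no filter on missing values, 2 with medians of rows, and 3 with rows complete on all 20 arrays, where 1 differed for 12 against 48 h. The cause of these moves was not tested. Leaving out each array in turn gave 1 gene at 12 h, 2 to 3 at 24 h, 5 to 9 at 48 h, 1, 2 to 3 and 5 to 8 rows, and 0, 0 to 2 and 1 to 3 genes in the 3 contrasts; uncalled ratios that changed sign ran from -0.39 to 0.93 for Krt6a, -0.079 to 0.46 for Krt6b and -0.014 to 0.32 for Krt19 at 12 h, -0.037 to 0.26 for Krt7, -0.14 to 0.048 for Krt15 and -0.24 to 0.0033 for Krt222 at 24 h, and -0.056 to 0.092 for Krt5 and -0.19 to 0.44 for Krt6b at 48 h, while Krt16 for 24 against 12 h ran from -0.017 to 0.095 and Krt8 minus Krt18 at 12 h from -0.14 to 0.084.

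The number of genes called among all 17051 also moved. At 48 h it was 4747 as reported, 234 with each time alone, 630 without replicates 5, 6 and 7, 1746 with array weights and 3198 with scaled arrays. At 24 h it was 284 as reported, 181 as deposited, 482 with scaled arrays and 570 with array weights, and at 12 h 48 as reported, 0 as deposited, 18 with each time alone and 83 with array weights. Between 24 and 48 h it was 350 as reported and from 2 as deposited to 1886 with the turned columns left out, and between 12 and 48 h 1563 as reported and from 283 without replicates 5, 6 and 7 to 2332 with complete rows. Between 12 and 24 h it was 153 as reported, 46 as deposited and 241 with array weights.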
